A study of Mus musculus with 26 samples.

Results

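Of the 23107 genes in the deposited table, 60 carry the symbols of translation initiation and elongation factors, the proteins that load ribosomes onto mRNA and drive them along it. The rule took every gene whose symbol begins with Eif1 to Eif6, Eef1 or Eef2. The sex-linked genes Eif2s3x and Eif2s3y and the eIF2 kinases named Eif2ak were left out, which took 66 matching genes to 60. Of these, 59 had enough counts to be tested. The exception was Eif4e1b, a cap-binding protein of oocytes, listed at 0 or near it in both fractions. Symbols do not guarantee a role in translation. Eif2c1, Eif2c2, Eif2c3 and Eif2c4 are older names of the Argonaute genes Ago1 to Ago4, Eif4a3 encodes a part of the exon junction complex, and Eif6 acts in the assembly of the large ribosomal subunit. These 6 are described as a class of their own.

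The RNA came from punches of the preoptic area, the part of the hypothalamus that holds the cell bodies of GnRH neurons. Every mouse carried the same 2 alleles, GnRH-Cre and a floxed-stop L10a-GFP transgene, so that ribosomes of cells with a history of Cre activity bear a GFP tag, whichever group the animal was in. Mice were 55 to 165 days old, and the 4 conditions were intact females in diestrus, ovariectomized females, intact males and orchidectomized males. Lysates of 5 to 7 mice were pooled, and each of 13 pools gave an immunoprecipitate of tagged ribosomes and a supernatant depleted of GnRH neurons. Intact males had 4 pools and each other condition 3. Because the tag follows Cre, the immunoprecipitate stands for every cell in which Cre was ever active, and it can also hold RNA bound without a tag.

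Translation begins when eIF2 brings the initiator tRNA to the small ribosomal subunit, where eIF1, eIF1A and eIF5 help to choose the start codon and the many-subunit eIF3 acts as a scaffold. eIF4E binds the cap of the mRNA, eIF4G bridges cap and ribosome, and the helicase eIF4A unwinds the leader. The 4E-binding proteins compete with eIF4G for eIF4E until the kinase mTORC1 phosphorylates them. In elongation, eEF1A carries aminoacyl-tRNA to the ribosome, the eEF1B subunits recharge eEF1A with GTP, eEF2 moves the ribosome along, and eIF5A helps it past difficult stretches. eEF1A exists in a form made in most tissues, from Eef1a1, and a form that takes its place in mature neurons and muscle, from Eef1a2. Mice that lack Eef1a2 lose motor neurons.

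Total counts ran from 27217253 to 56668582 per library, and replicate spread was wider among immunoprecipitates than among supernatants (biological coefficient of variation 0.560 against 0.181). All 5 markers of GnRH neurons passed the test as higher in the immunoprecipitate, with a summed level of 3400.2 to 21354 CPM (counts scaled to a common library size) against 131 to 1675. All 10 oligodendrocyte markers, 6 of 8 astrocyte markers and 5 of 8 microglial markers passed as lower, but none of these lists was at 0. Astrocyte markers summed to 303 to 2006 CPM in the immunoprecipitates (median 434) and at most 698 in the supernatants (median 611). Of 8 endothelial and mural markers 2 were higher and 1 lower, with sums of up to 204 against 39.8 CPM and medians of 21.4 against 26.3. Oligodendrocyte markers still summed to 1299 to 2038 CPM in the immunoprecipitates. Of 7 general neuron markers, 1 was higher and 3 were lower. The labels number the libraries from 1 to 30, and those numbered 1 to 10 hold 4 pools, all from intact mice. Their immunoprecipitates averaged 18980.0 CPM of Gnrh1 against 5924 in the later ones, so numbering goes with the level of Gnrh1 and, in part, with gonadectomy.

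Of the 2 carriers of aminoacyl-tRNA, Eef1a2 was lower in the immunoprecipitate than in the supernatant and Eef1a1 was higher, in every pool. In intact females, Eef1a2 stood at 44.0, 43.0 and 43.5 CPM in the immunoprecipitates and 212, 224 and 221 in the supernatants. Gonadectomized females held 38.6, 29 and 46.8 CPM in the immunoprecipitates and 314, 185 and 218 in the supernatants. For intact males the values were 48.3, 47.4, 42.4 and 39.6 against 210.5, 200.2, 240.0 and 219 CPM. They were 39.1, 32.9 and 22.1 against 214, 215 and 236 CPM in gonadectomized males. No immunoprecipitate overlapped any supernatant: the highest of the former was 48.3 and the lowest of the latter 185 CPM. The means of all 13 pools were 39.8 ± 7.68 and 224 ± 30.4 CPM (SD, n = 13), a log2 -2.52 ± 0.10 SE, adjusted p 3.04e-15, by the quasi-likelihood F-test of edgeR, adjusted over 16713 genes after Benjamini and Hochberg. Every other adjusted p in this report comes from that test unless another tool is named. By p, Eef1a2 ranked 2 among all 16713 genes tested, and 255 genes had a lower log2 fold change.

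Eef1a1 moved the other way. In the immunoprecipitates of intact females it stood at 3783, 3219 and 2214 CPM against 1889, 1923 and 1797 in the supernatants, and in gonadectomized females at 2216, 2290.2 and 2424 against 1925, 1734 and 1703. Intact males held 3042, 2756, 1926 and 1873 CPM against 1572, 1644, 1603 and 1562, and gonadectomized males 1879, 2003 and 1897 against 1564, 1652 and 1467. The 4 highest immunoprecipitates, from 2756 to 3783 CPM, were those of the libraries numbered 1 to 10, and the other 9 lay between 1873 and 2424. Over all pools the means were 2425 ± 604 and 1695 ± 149.7 CPM, a log2 0.49 ± 0.08 SE, adjusted p 1.64e-05. Within libraries 1 to 10 the log2 was 0.92, and within libraries 11 to 30 it was 0.31 (adjusted p 5.92e-05 and 0.000226), while Eef1a2 gave -2.16 and -2.58. The higher log2 of Eef1a1 thus went with the higher Gnrh1, and the log2 of Eef1a2 was nearer to 0 in those libraries. Whether either differed between the numberings was not tested. In bulk RNA of this kind, fewer cells of a type and less of a transcript per cell cannot be told apart. The 7 general neuron markers summed to 4950.0 to 6984 CPM in the immunoprecipitates and 5295 to 6917 in the supernatants. Muscle, the other tissue of Eef1a2, was represented by 5 markers that summed to 12.7 to 37.1 and 13.5 to 23.9 CPM, with Mb higher and Myh4 lower. The part of other cell types in these differences was not tested.

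**Figure D1:**
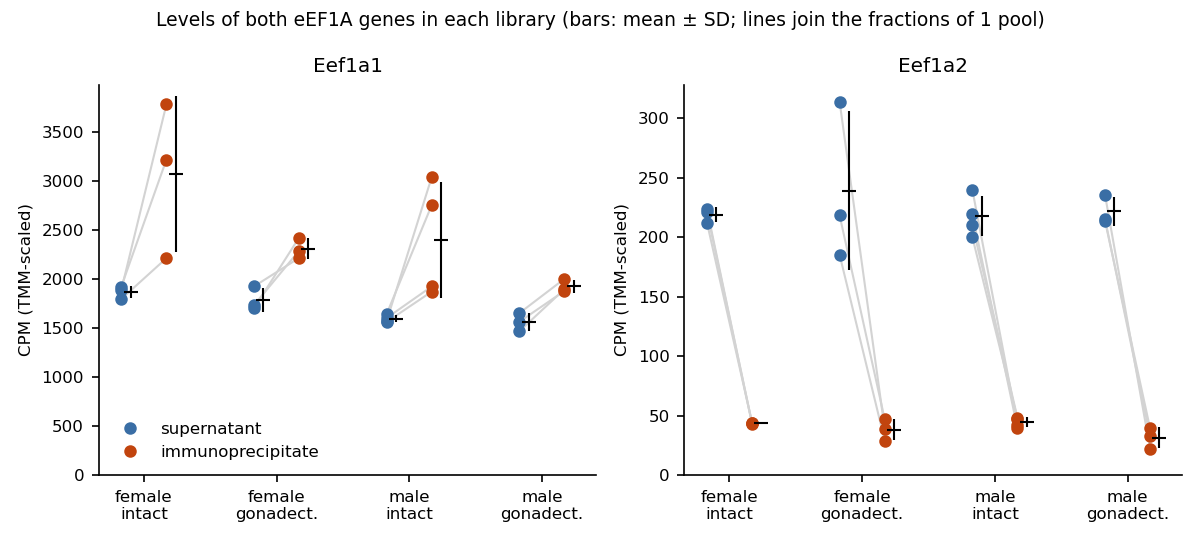
Level of Eef1a1 (left) and Eef1a2 (right) in CPM after TMM scaling, in each of the 26 libraries by condition. Blue points are supernatants, red points immunoprecipitates, grey lines join both fractions of a pool, and black bars give the mean ± SD of a group. For Eef1a2 all 13 immunoprecipitates (22.1 to 48.3 CPM) lie below all 13 supernatants (185 to 314 CPM), and every grey line for Eef1a1 rises.

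As a ratio within each library, which no scaling can move, counts of Eef1a1 were 7.6-fold those of Eef1a2 in the supernatants (geometric mean, range 6.14 to 9.37) and 60.7-fold in the immunoprecipitates (range 45.4 to 86.0). The log2 ratio was higher in the immunoprecipitate of 13 of 13 pools, by 3.00 ± 0.09 SE on average and by 2.65 to 3.78 in single pools. A two-sided permutation test over all 8192 sign patterns of the pools gave p = 0.000244, the smallest it can give. The shift was 2.96 in the 9 later pools and 3.07 in the 4 early ones, where 0.125 is the smallest p possible. Per kilobase of transcript, Eef1a2 made up 10.2% ± 1.20 of the 2 forms in the supernatants and 1.43% ± 0.306 in the immunoprecipitates (SD, n = 13 each). By condition, the share in the immunoprecipitates was 1.26% in females and 1.61% in males when intact, and 1.40% and 1.38% after gonadectomy, and their ranges overlapped. In the supernatants it was 9.17%, 10.5%, 10.2% and 10.9% in the same order, and intact females (8.82 to 9.58%) lay below gonadectomized males (10.1 to 12.1%).

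Eef1a1 lies on the minus strand of chromosome 9 (chr9:78478449-78489151, GRCm38) and Eef1a2 on the minus strand of chromosome 2 (chr2:181147653-181157014). Their promoters are shown because this pair separates most and the windows differ in composition. Each line gives 250 bases before and 30 bases after the transcription start annotated by RefSeq on GRCm38.p6, 5′ to 3′ on the strand of the gene, from chr9:78481695-78481974 for Eef1a1 and chr2:181156986-181157265 for Eef1a2, and capitals mark a match, on either strand, to the TATA box core TATAA, to the E-box letters CACGTG, or to the ETS core spelled CCGGAAG.
Eef1a1: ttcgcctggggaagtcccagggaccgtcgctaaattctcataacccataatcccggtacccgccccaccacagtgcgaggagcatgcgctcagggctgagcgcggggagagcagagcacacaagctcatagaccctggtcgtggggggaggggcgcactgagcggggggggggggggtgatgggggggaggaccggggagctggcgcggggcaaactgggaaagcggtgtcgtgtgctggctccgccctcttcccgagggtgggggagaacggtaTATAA
Eef1a2: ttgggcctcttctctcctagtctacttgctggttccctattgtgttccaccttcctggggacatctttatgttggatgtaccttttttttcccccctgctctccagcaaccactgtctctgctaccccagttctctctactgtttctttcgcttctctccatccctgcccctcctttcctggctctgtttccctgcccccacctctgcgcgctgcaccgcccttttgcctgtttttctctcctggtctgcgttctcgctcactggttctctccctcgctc
Over the full window of 300 bases, C and T made up 75.7% of the bases of Eef1a2 on the strand of the gene and 40.3% of those of Eef1a1, against a median of 49.7% over all 32851 windows. Only 0.0944% of windows reached the share of Eef1a2, whose longest unbroken run of C and T was 17 bases. Eef1a1 was richer in GC, with 66.7% against 55.0% and a median of 52.7%, and held 22 CpG against 8. The letters TATAA begin 26 bases after the annotated start of Eef1a1 and do not occur in the window of Eef1a2. Where transcription of Eef1a1 starts in these cells was not tested, so the shares describe the windows, not the starts of the mRNAs. RefSeq gave a window for 46 of the 60 members. TATAA was in 6 of these 46 and in 28% of all 27025 genes, the E-box letters CACGTG in 12 and 8.09%, and the ETS core CCGGAAG in 17 and 9.93%. Among members called higher in the immunoprecipitate that had a window, 5 of 19 held TATAA, 5 CACGTG and 6 CCGGAAG. These matches are descriptions of letters, not of bound sites.

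Over all 59 tested members, 28 were higher in the immunoprecipitate, 5 were lower and 26 did not pass. Of all 16713 genes tested, 21.3% were called higher and 21.6% lower. The share called higher was therefore 47.5% among members and the share called lower 8.47%. The median log2 fold change was 0.23 for members and -0.06 for all genes. In limma voom, which fits log CPM with the same TMM factors, the split of all calls moved from 3559 higher and 3608 lower to 3355 and 5136. The median of all genes moved from -0.06 to -0.16, and members were 27 higher and 6 lower. Eif4ebp3 aside, the fits by DESeq2, by voom, without a filter and with the pool as a block kept the call of every member called. In libraries 11 to 30 alone 18 of 59 members were higher, against 34 of 59 in libraries 1 to 10 alone. Of all genes tested, 2353 of 17378 were higher in the former fit and 3127 of 16370 in the latter. Of the 33 called members, 17 were called in both sets of libraries fitted separately.

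**Figure D2:**
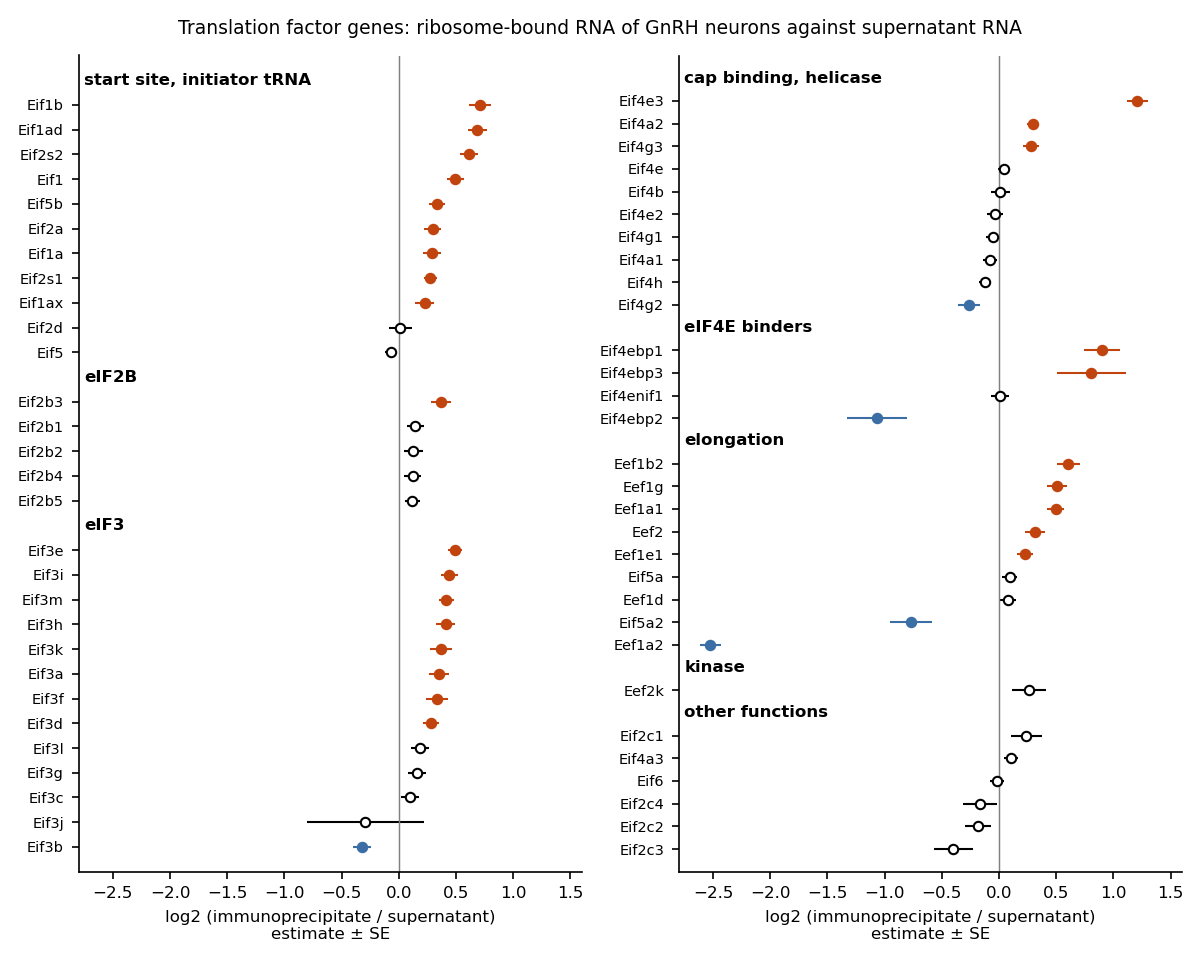
Log2 fold change of immunoprecipitate over supernatant for the 59 tested members, as the estimate over 13 pools ± SE, grouped by role. Filled red points passed as higher, filled blue points as lower, and open points did not pass an adjusted p of 0.05. Eef1a2 stands alone at -2.52, Eif4e3 is highest at 1.21, and most start site factors and eIF3 subunits lie above 0.

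Factors of the start site and the initiator tRNA were the class most often called higher, with 9 of 11 higher, none lower and a median log2 of 0.30. In this and the following paragraphs, group values are means ± SD in the order intact females, gonadectomized females, intact males and gonadectomized males (n = 3, 3, 4 and 3 pools). Eif1b, a close relative of the start codon factor eIF1, stood at 579.5 ± 191, 422 ± 30.7, 506 ± 149 and 349 ± 51.2 CPM in the immunoprecipitates and 297 ± 13.7, 306 ± 41.1, 261 ± 7.63 and 254 ± 3.33 CPM in the supernatants. It was higher in 13 of 13 pools (log2 0.71 ± 0.10 SE, adjusted p 3.44e-06), and the ranges of both fractions did not overlap in any of the 4 conditions. Eif1ad, a protein with an eIF1A-like domain, was at 92.7 ± 20.9, 86.6 ± 8.02, 115 ± 7.76 and 91.6 ± 22.6 CPM against 62.7 ± 6.80, 68.4 ± 11.4, 54.0 ± 3.12 and 54.7 ± 1.06 CPM (log2 0.69 ± 0.08 SE, adjusted p 4.58e-07). Eif2s2, the beta subunit of eIF2, was at 159 ± 28.1, 141 ± 15.5, 147 ± 31.3 and 120.4 ± 18.9 CPM against 96.3 ± 1.81, 101 ± 7.77, 84.0 ± 3.84 and 88.8 ± 5.30 CPM (log2 0.61 ± 0.08 SE, adjusted p 7.9e-07). Both rose in all 13 pools. Eif1 itself, the most abundant of the class, reached 2068 ± 515, 1735 ± 93.1, 1821 ± 344 and 1480.3 ± 161 CPM against 1279.7 ± 28.6, 1464 ± 226, 1117 ± 47.9 and 1170.4 ± 63.8 CPM (log2 0.50 ± 0.08 SE, adjusted p 1.2e-05) and has 20 near-identical copies in the annotation. Smaller rises were called for Eif5b, which joins the ribosomal subunits (0.34), Eif2a (0.30), Eif1a (0.29), the alpha subunit gene Eif2s1 (0.28) and Eif1ax (0.23). Eif5, the GTPase activator of eIF2, was at -0.07 and Eif2d at 0.01, and neither passed. In libraries 11 to 30 alone Eif1a (0.16, adjusted p 0.228) and Eif1ax (0.06, 0.683) were not called, and in libraries 1 to 10 alone Eif5b was not (0.24, 0.221). Eif1ax lost its call without any of 5 libraries, the supernatants of intact female replicates 0 and 1 and gonadectomized female replicate 0 and the immunoprecipitates of intact female replicate 0 and gonadectomized female replicate 1, with log2 values of 0.19 to 0.21 and adjusted p of 0.0538 to 0.0631.

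eIF2B is the exchange factor that returns eIF2 to its active form. Of its 5 subunits, Eif2b3 alone was called (log2 0.37 ± 0.08 SE, adjusted p 0.0011), and it lost the call in libraries 11 to 30 alone (0.25, adjusted p 0.0658). The other 4 lay between 0.12 and 0.14. In libraries 1 to 10 alone 4 of the 5 were higher (median 0.48, all genes -0.14), where 3127 of all 16370 genes were higher. In libraries 11 to 30 alone 0 of the 5 were higher (median 0.05, all genes -0.05), where 2353 of all 17378 genes were. Whether these sets of libraries differ was not tested. Eif2b5, the most abundant, held 113 ± 10.5, 115 ± 7.28, 119 ± 19.5 and 89.5 ± 9.33 CPM in the immunoprecipitates and 97.9 ± 11.4, 100.2 ± 2.64, 97.3 ± 9.98 and 104 ± 6.43 CPM in the supernatants, and was higher in 7 of 13 pools.

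Of the 13 subunits of eIF3, 8 were higher and 1 was lower, with a median of 0.33. The rises were 0.49 for Eif3e, 0.44 for Eif3i, 0.41 for Eif3m, 0.41 for Eif3h, 0.37 for Eif3k, 0.35 for Eif3a, 0.33 for Eif3f and 0.28 for Eif3d. Eif3e and Eif3m rose in all 13 pools. Eif3h, the subunit gene with the highest mean CPM over both fractions together, stood at 295 ± 49.7, 235 ± 14.8, 261 ± 75.5 and 200.3 ± 15.5 CPM against 192 ± 20.5, 213 ± 28.9, 168 ± 8.67 and 171 ± 1.79 CPM. In the supernatants alone Eif3b and Eif3g were higher, at 207 and 199 CPM against 184. Eif3b, a core subunit that binds the small ribosomal subunit, went the other way, with 156 ± 28.4, 173 ± 26.9, 163 ± 13.5 and 170.2 ± 35.4 CPM in the immunoprecipitates and 211 ± 1.97, 196 ± 39.3, 208 ± 4.75 and 214 ± 15.8 CPM in the supernatants (log2 -0.32 ± 0.08 SE, adjusted p 0.00151). It was lower in 13 of 13 pools, although its call did not hold in libraries 11 to 30 alone (-0.25, adjusted p 0.086). Subunits of this one complex thus ran from -0.32 to 0.49 in log2 fold change. In libraries 11 to 30 alone Eif3d (0.15), Eif3f (0.09), Eif3h (0.19) and Eif3k (0.12) were not called, with adjusted p of 0.0585 to 0.502. In libraries 1 to 10 alone Eif3a was not called (0.12, adjusted p 0.46). Eif3c, Eif3g and Eif3l did not pass. Eif3j, listed now as Eif3j1, ran from 0.0269 to 54.3 CPM among the immunoprecipitates alone, and it has a near-identical copy, Eif3j2, that is not used here, so its level is uncertain.

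Among the cap-binding and helicase genes, 3 of 10 were higher and 1 was lower, with a median of -0.01. Eif4e3, a divergent relative of the cap-binding protein eIF4E, rose most of all members. Its lowest, median and highest values were 39.4, 57.7 and 90.1 CPM in the immunoprecipitates and 21.3, 24.4 and 31.0 CPM in the supernatants, so the fractions did not overlap. By group it was at 69.9 ± 19.6, 58.7 ± 6.50, 59.5 ± 8.30 and 50.0 ± 9.16 CPM against 26.7 ± 0.863, 27.7 ± 5.56, 23.9 ± 0.471 and 24.2 ± 1.20 CPM (log2 1.21 ± 0.09 SE, adjusted p 2.48e-10). Eif4e, the main cap-binding protein, did not pass (0.05), nor did Eif4e2 (-0.04). Of the helicases, Eif4a2 rose in 13 of 13 pools, from 605 ± 59, 615 ± 28.4, 598 ± 47.5 and 615 ± 5.88 CPM to 830.1 ± 71.8, 743 ± 29, 756 ± 56.3 and 664 ± 39.0 CPM (log2 0.29 ± 0.05 SE, adjusted p 3.44e-05), and Eif4a1 did not pass (-0.08). Eif4g3, a scaffold relative of eIF4G, rose by 0.28 over all pools and was not called in libraries 1 to 10 alone (0.07, adjusted p 0.586). Eif4g2, which serves cap-independent initiation, was called lower over all pools (log2 -0.26 ± 0.09 SE, adjusted p 0.0274), with 505 ± 107, 617 ± 23.2, 516 ± 86.1 and 556 ± 50.3 CPM in the immunoprecipitates against 623 ± 61.4, 585 ± 212, 704 ± 88.0 and 719 ± 33.0 CPM in the supernatants. In gonadectomized females its mean was higher in the immunoprecipitate, and supernatant replicate 0 of that group stood at 363 CPM. In libraries 11 to 30 alone it was not called (-0.21, adjusted p 0.204). The call was also lost without the immunoprecipitate of intact female replicate 0 or 1 or the supernatant of gonadectomized female replicate 2 (-0.23, -0.24 and -0.19, adjusted p 0.0545, 0.0514 and 0.0739). Eif4b, Eif4g1 and Eif4h did not pass.

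The proteins that hold eIF4E back split within the family. Eif4ebp1 was at 7.53 ± 2.84, 7.19 ± 1.28, 7.37 ± 1.80 and 9.01 ± 0.827 CPM in the immunoprecipitates against 4.67 ± 0.946, 5.06 ± 1.88, 3.45 ± 0.638 and 3.65 ± 0.279 CPM in the supernatants (log2 0.90 ± 0.16 SE, adjusted p 7.65e-05, higher in 12 of 13 pools), and was not called in libraries 1 to 10 alone (0.96, adjusted p 0.0878). Eif4ebp2, the form best known from brain, was at 4.23 ± 3.06, 6.48 ± 1.61, 4.48 ± 2.83 and 5.88 ± 1.97 CPM against 11.4 ± 1.43, 11.1 ± 5.02, 11.1 ± 2.30 and 9.92 ± 0.838 CPM (log2 -1.07 ± 0.26 SE, adjusted p 0.00195, lower in 13 of 13 pools). Both are low, and the immunoprecipitate values of Eif4ebp2 ran from 0.778 to 8.34 CPM. Eif4ebp3 averaged only 1.82 and 1.01 CPM (log2 0.81 ± 0.30 SE, adjusted p 0.0342). It lost its call in 10 of the 26 fits that left out 1 library, with the pool as a block (adjusted p 0.0845) and in limma voom (0.0553). Eif4enif1, which carries eIF4E into the nucleus, was at 48.3 ± 8.14, 44.1 ± 7.33, 47.2 ± 4.91 and 52.6 ± 8.68 CPM against 48.3 ± 6.39, 42.7 ± 6.71, 51.6 ± 1.90 and 48.7 ± 1.92 CPM and did not pass (0.01, adjusted p 0.943).

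Among 9 elongation genes, 5 were higher and 2 lower. Beside Eef1a1, the exchange factor subunits Eef1b2 (284 ± 88.7, 214 ± 16.6, 255 ± 86.0 and 182 ± 17.5 CPM against 158 ± 0.864, 174 ± 22.1, 137 ± 6.06 and 139 ± 9.77 CPM, log2 0.61 ± 0.10 SE, adjusted p 3.94e-05) and Eef1g (log2 0.51 ± 0.09 SE, adjusted p 6.62e-05) rose, and another subunit, Eef1d, did not pass (0.08). Eef2, the translocase, rose by 0.32, and Eef1e1, a scaffold of the tRNA synthetase complex, by 0.23. Neither was called in libraries 11 to 30 alone (0.14 and 0.11, adjusted p 0.208 and 0.352). Eif5a was at 0.09 and did not pass. Its relative Eif5a2 fell from 53.2 ± 13.6, 51.4 ± 23.1, 68.0 ± 16.3 and 71.3 ± 1.88 CPM to 41.4 ± 19.8, 40.5 ± 1.98, 29 ± 16.1 and 32.3 ± 2.40 CPM (log2 -0.77 ± 0.18 SE, adjusted p 0.00152) and was lower in 12 of 13 pools. Eef2k, the kinase that stops eEF2, stood at 29.5 ± 9.69, 21.7 ± 13.6, 29.6 ± 3.90 and 26.6 ± 1.75 CPM against 23.7 ± 0.185, 19.6 ± 1.57, 22.5 ± 1.95 and 23.4 ± 0.540 CPM and did not pass (0.26, adjusted p 0.163). None of the 6 genes with other functions passed, from Eif2c3 at -0.40 to Eif2c1 at 0.24. Eif6, the most abundant of them, was at 143 ± 10.1, 140.0 ± 12.6, 136 ± 12.1 and 113 ± 2.25 CPM against 130.1 ± 15.1, 160.0 ± 29.1, 124 ± 7.62 and 126 ± 1.23 CPM.

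For 8 pairs of related genes, the ratio of their counts was taken within each library. The shift of the log2 ratio from supernatant to immunoprecipitate was 2.18 for Eif4ebp1 to Eif4ebp2, in 13 of 13 pools, second to that of the eEF1A pair. Eif4e to Eif4e3 shifted by -1.15, so that counts of Eif4e went from 9.87-fold to 4.45-fold those of Eif4e3. Eif5a to Eif5a2 shifted by 0.96 in 11 of 13 pools, over a range of -0.70 to 2.44. Smaller shifts with the same sign in all 13 pools were -0.38 for Eif4a1 to Eif4a2, -0.31 for Eif4g1 to Eif4g3 and -0.20 for Eif1 to Eif1b. Only Eif1a to Eif1ax showed no common direction, with 0.05 and 7 pools up against 6 down. These shifts describe pairs of members already tested above and carry no test of their own.

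**Figure D3:**
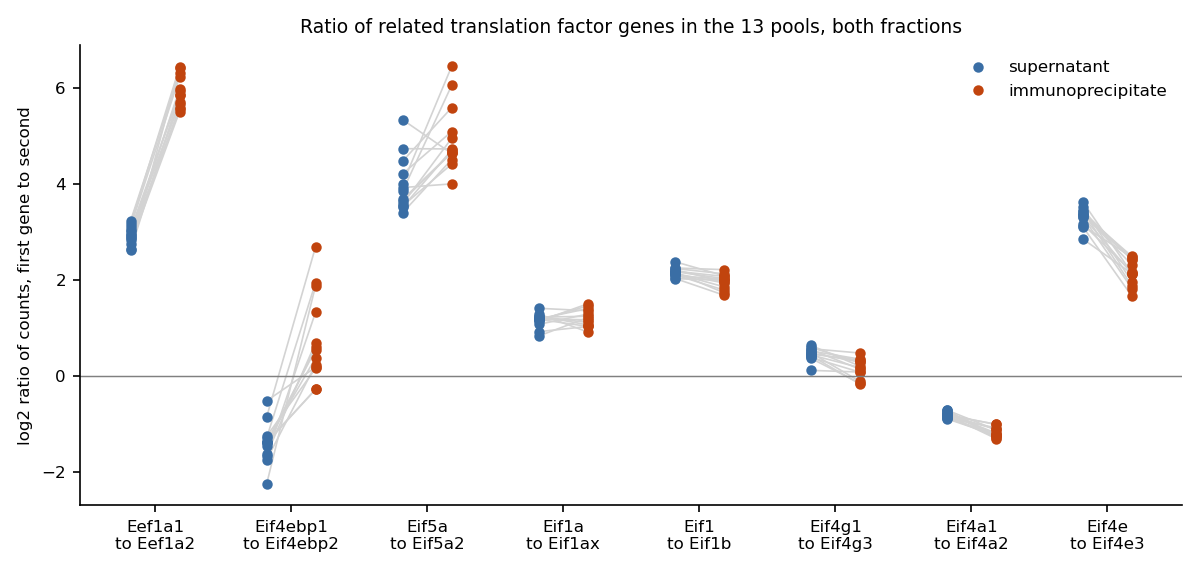
Log2 ratio of counts of the first gene to the second for 8 pairs of related translation factors, with 1 point per library and 13 pools per fraction. Blue points are supernatants, red points immunoprecipitates, and grey lines join the fractions of a pool. For Eef1a1 to Eef1a2 the supernatants (2.62 to 3.23) and immunoprecipitates (5.50 to 6.43) are well apart, and for Eif4e to Eif4e3 every line falls.

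Compared between genes per kilobase of transcript, Eef1a1 was the most abundant member in both fractions, with 1352 ± 337 CPM per kilobase in the immunoprecipitates and 945 ± 83.4 in the supernatants, and Eif1 was next (1346 ± 266 and 943 ± 129), within the spread of Eef1a1 in the immunoprecipitates. Eif5a ranked 3 in both (713 ± 97.8 and 663 ± 102). Eef1a2 ranked 14 of 60 in the supernatants, at 107 ± 14.6, and 42 in the immunoprecipitates, at 19.1 ± 3.68. Eif4e3 went from rank 48 to rank 40. Members called higher were shorter, with a median transcript of 2.1 kilobases against 5.03 for those called lower and 2.46 for those that did not pass. Across the 59 genes, which are not independent replicates, Spearman's rho of fold change with length was -0.46. No such value over all genes tested is given here, so a trend particular to the members is not shown. The part of transcript length in the calls was not tested. Near-identical sequence, meaning at least 90% identity over 300 bases or more with another annotated gene, was found for 27 members, among them Eef1a1 with 15 copies, Eif1 with 20 and Eif1a with 12. Because the sources used here do not say how reads of such copies were assigned, levels of those members are uncertain, while Eef1a2 has no such copy.

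Of the 9 members widely known as mRNAs with a terminal oligopyrimidine start, whose translation follows mTORC1, 7 were higher and none lower, with a median of 0.41. That list was chosen with earlier results of these data known, so its counts describe the genes listed and are no test. Among the other 50 tested, 21 were higher and 5 lower, with a median of 0.15. Of all genes tested, 21.3% were higher and 21.6% lower. The 5 lower include Eef1a2, which the list of 9 left out and whose promoter window held 75.7% C and T. Of the 9, those called were Eef1a1, Eef1b2, Eef1g, Eef2, Eif3e, Eif3f and Eif3h, and not called were Eef1d and Eif4b. Of these 7, Eef2, Eif3f and Eif3h lost the call in libraries 11 to 30 alone.

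Of 40 tested genes from a list of 43 that act around these factors, 10 were higher and 8 lower, near the shares over all genes, of which 21.3% were higher and 21.6% lower. The list was of regulators, termination factors and modifying enzymes. Ppp1r15a, the inducible subunit that directs a phosphatase to eIF2, rose in 13 of 13 pools from 28.5 ± 2.47 to 86.0 ± 18.6 CPM (log2 1.58). Its constitutive counterpart Ppp1r15b fell by 0.72 on the log2 scale. The eIF2 kinases Eif2ak1, Eif2ak2, Eif2ak3 and Eif2ak4 did not pass. Of 5 targets of the eIF2 stress response, Trib3 (2.97) and Atf4 (0.35) rose, and Ddit3, Chac1 and Asns did not pass. Reinitiation helpers gave 3 of 4 higher, with Mcts1 at 0.63 and its partner Denr at 0.34. Termination and ribosome rescue factors gave 3 of 5 lower, with Pelo at -0.76. In the mTORC1 and MNK list, Rheb (0.40) and Mknk2 (0.44) rose, and Rptor (-0.42) and Mknk1 (-0.38) fell.

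Fitted for each condition, more members were called in intact than in gonadectomized mice. With libraries 11 to 30 alone, gonadectomized mice, which then had more pools than intact ones, gave the higher counts. Shares of all genes called are given below for the main fit only. Counts of members in the other fits therefore cannot be set against such shares. In intact females 19 members were higher and 1 lower, where 10.2% of all genes were called higher and 7.77% lower. Intact males gave 21 and 4, against 14.6% and 11.2% of all genes. Gonadectomized females gave 2 and 1 (2.97% and 3.31% of all genes), and gonadectomized males 6 and 2 (5.93% and 4.73%). With libraries 11 to 30 alone, the counts of members called higher were 0 and 4 in intact females and males, with 1 and 2 pools left, and 8 and 13 in gonadectomized females and males. With the pool as a block, intact females had 3 members lower and gonadectomized females 1 higher. Fitted with only the 2 groups compared, intact females gave 1 and gonadectomized males 16. Without 1 library, intact females gave 8 (immunoprecipitate replicate 0) or 10 (supernatant replicate 0), gonadectomized females 1 (any of 5 libraries) and gonadectomized males 3 (supernatant replicate 1), members called lower rose to 3 in intact females without immunoprecipitate replicate 2, and fell to 2 in intact males without supernatant replicate 0 or 2 or immunoprecipitate replicate 1 and to 1 in gonadectomized males without any of their 6 libraries. The median log2 of the members stood above that of all genes in each condition, at 0.24 against -0.07, 0.14 against -0.02, 0.29 against -0.04 and 0.14 against 0.01, in the order intact females, gonadectomized females, intact males and gonadectomized males.

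Eef1a2 and Eif4e3 were the members called in all 4 conditions. In that order Eef1a2 was at -2.33, -2.65, -2.29 and -2.82, and Eif4e3 at 1.39, 1.08, 1.31 and 1.05. Eef1a1 gave 0.72, 0.37, 0.59 and 0.30, and passed in the intact groups. In libraries 11 to 30 alone, with fewer intact pools left, Eef1a1 passed in gonadectomized females (0.37, adjusted p 0.00591) and males (0.31, 0.0115). It gave 0.30 in intact females and 0.26 in intact males (adjusted p 0.117, not passing). With only the groups compared, it missed the threshold in intact females (adjusted p 0.0882) and passed in gonadectomized males (0.0174). Besides these, the highest calls in intact females were Eif1b (0.96), Eef1b2 (0.84), Eef1g (0.75) and Eif2s2 (0.73). In intact males they were Eif1ad (1.10), Eif4ebp1 (1.09), Eif1b (0.96), Eef1b2 (0.90) and Eif2s2 (0.81), and Eif4ebp2 (-1.30), Eif5a2 (-1.23) and the Argonaute gene Eif2c4 (-0.78) were lower. Eif4ebp2 and Eif2c4 lost the call with only the groups compared (adjusted p 0.0611 and 0.132) and in libraries 11 to 30 alone (-0.54 and -0.69, adjusted p 0.482 and 0.178). Of the 25 calls in intact males, 20 were lost in libraries 11 to 30 alone and 7 with only the groups compared. The latter fit lost 18 of the 20 calls in intact females. Gonadectomized females added Eif3e (0.40, adjusted p 0.049), which was not called with the pool as a block (adjusted p 0.109), with RLE factors, without a filter or with only the groups compared. Gonadectomized males added Eif4ebp1 (1.30), Eif1ad (0.74), Eif4g3 (0.68), Eif3a (0.58) and Eif5b (0.58) as higher and Eif4e (-0.34, adjusted p 0.0493) as lower. The call of Eif4e was lost with the pool as a block (adjusted p 0.0995), with RLE factors and without a filter.

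**Figure D4:**
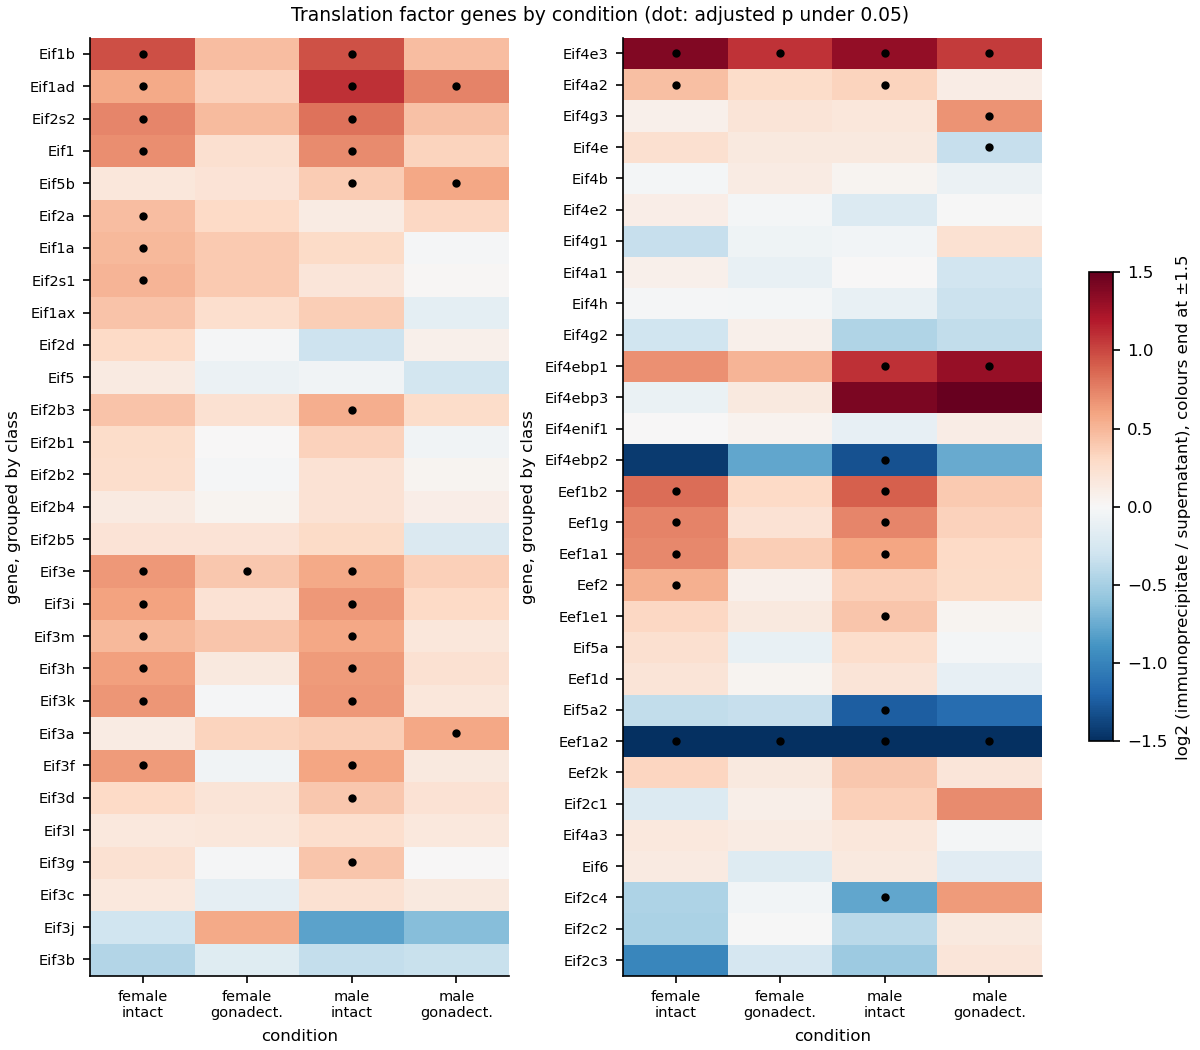
Log2 fold change of immunoprecipitate over supernatant for the 59 tested members in each condition, as colour from blue (lower) to red (higher). A black dot marks an adjusted p under 0.05. Dots are dense in the intact columns (20 and 25 members) and sparse in the gonadectomized ones (3 and 8), and the row of Eef1a2 is dark blue with a dot in every column.

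No member passed a test of the difference in enrichment between conditions. The shares of all genes called were 0% for gonadectomized minus intact in females, 0% in males, 0.00598% for male minus female in intact and 0% in gonadectomized mice. At an unadjusted p under 0.05 there were 2, 7, 2 and 4 members in these comparisons, and DESeq2 called none in any of them. How many of all genes reached that unadjusted p is not given here. The lowest p belonged to Eif3f in females (-0.70 ± 0.28 SE, p 0.0201, adjusted p 0.664) and Eif2c4 in males (1.42 ± 0.40 SE, p 0.00183, adjusted p 0.593). Between the sexes it belonged to Eif1ad in intact mice (0.53 ± 0.22 SE, p 0.0265, adjusted p 1) and Eif4e in gonadectomized mice (-0.49 ± 0.16 SE, p 0.00489, adjusted p 0.838). For Eef1a1 the difference in females was -0.35 ± 0.23 SE (p 0.138, adjusted p 0.796), and for Eef1a2 it was -0.32 ± 0.26 SE (p 0.24, adjusted p 0.855). In males they were -0.29 ± 0.21 SE (p 0.189, adjusted p 0.699) and -0.53 ± 0.25 SE (p 0.0418, adjusted p 0.603).

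Within the immunoprecipitates, gonadectomy and sex likewise left no member past the threshold. The shares of all 16160 genes called were 0% for gonadectomy in females, 0% in males, 0.0248% for sex in intact mice and 0.0186% in gonadectomized mice. Members with an unadjusted p under 0.05 numbered 2, 8, 3 and 7, and no share of all genes is given at that threshold. In gonadectomized against intact females, Eef1g was at 470.4 ± 13.5 against 679 ± 192 CPM, a log2 change of -0.53 ± 0.22 SE (p 0.0319, adjusted p 0.994), and Eif3f at 132 ± 4.64 against 196 ± 64.3 CPM, a log2 change of -0.57 ± 0.25 SE (p 0.0353, adjusted p 0.994). In libraries 11 to 30 alone both were near 0, at 0.02 and 0.01. In gonadectomized against intact males, Eif4e was at 198 ± 4.47 against 280.0 ± 33.6 CPM, a log2 change of -0.50 ± 0.13 SE (p 0.00125, adjusted p 0.525), and the 3 gonadectomized pools (194.7 to 202.7 CPM) lay below all 4 intact ones (238 to 309). DESeq2 called it (adjusted p 0.0447), and called no other member in the 4 comparisons of immunoprecipitates. Eif2c4 was at 13.1 ± 2.34 against 5.47 ± 2.40 CPM, a log2 change of 1.25 ± 0.39 SE (p 0.00636, adjusted p 0.525). Between the sexes, Eif4g1 had more counts in males in both states. Intact males and females held 121 ± 5.48 against 85.2 ± 8.88 CPM, a log2 change of 0.50 ± 0.13 SE (p 0.00172, adjusted p 0.991), and gonadectomized ones 129 ± 4.38 against 94.4 ± 4.77 CPM, a log2 change of 0.45 ± 0.14 SE (p 0.00582, adjusted p 0.551). The ranges did not overlap in either state (114 to 127 against 79.2 to 95.4, and 125 to 134 against 91.5 to 99.9 CPM), but neither comparison passed. In the supernatants, Eif4g1 was also higher in intact males (112 to 136 CPM) than in intact females (106 to 110). The gonadectomized supernatants overlapped, with 102 to 124 CPM in males and 84.3 to 119 in females. The other members with the lowest p were Eif2d in intact mice, at 28.2 ± 11.1 against 44.6 ± 3.23 CPM, a log2 change of -0.66 ± 0.26 SE (p 0.0212, adjusted p 0.991), and Eif4e in gonadectomized mice, at 198 ± 4.47 against 278 ± 6.19 CPM, a log2 change of -0.49 ± 0.13 SE (p 0.00235, adjusted p 0.551). The 2 comparisons of gonadectomized males share those pools, so the values of Eif4e in them are not independent.

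In the supernatants, no member was called either. The shares of all 16360 genes called were 0.0122% for gonadectomy in females, 0% in males, 0.0428% for sex in intact mice and 0.0428% in gonadectomized mice. At an unadjusted p under 0.05, a different threshold, there were 6, 1, 2 and 17 members. The share of all genes at that unadjusted p is not given here, so these counts cannot be set against it. For gonadectomy in females, Eif6 was at 160.0 ± 29.1 against 130.1 ± 15.1 CPM, a log2 change of 0.33 ± 0.13 SE (p 0.0215, adjusted p 0.653) and Eif3g at 239 ± 38.4 against 201 ± 12.3 CPM, a log2 change of 0.29 ± 0.11 SE (p 0.0221, adjusted p 0.653). In males, Eif2c2 was at 41.3 ± 2.26 against 50.1 ± 3.12 CPM, a log2 change of -0.28 ± 0.12 SE (p 0.0359, adjusted p 1) and Eif4g3 at 77.5 ± 2.14 against 88.2 ± 2.73 CPM, a log2 change of -0.19 ± 0.11 SE (p 0.0897, adjusted p 1). For sex in intact mice, Eef1a1 was at 1595 ± 36.7 against 1869 ± 65.3 CPM, a log2 change of -0.20 ± 0.08 SE (p 0.0269, adjusted p 0.861) and Eef1g at 332 ± 22.4 against 405 ± 19.5 CPM, a log2 change of -0.26 ± 0.11 SE (p 0.0309, adjusted p 0.861). In gonadectomized mice, Eif3g was at 185 ± 7.58 against 239 ± 38.4 CPM, a log2 change of -0.38 ± 0.11 SE (p 0.0039, adjusted p 0.109) and Eif3k at 133 ± 3.08 against 178 ± 40.4 CPM, a log2 change of -0.44 ± 0.13 SE (p 0.00535, adjusted p 0.11). DESeq2 called 8 members in that last comparison, a term for the numbering gave 2, and without the supernatant of gonadectomized female replicate 2 edgeR called 16. For gonadectomy in females, leaving out the same library raised the count from 0 to 3. The shares of all genes called in these alternatives are not given here, so these counts cannot be set against them. Replicate 2 was the lowest of the gonadectomized females in Eif3g, with 196 CPM against 269 and 253 in replicates 0 and 1. It stood nearer to the gonadectomized males, at 185, 193 and 178, and also to the intact females, at 192, 197 and 215. Replicate 0 of the gonadectomized females stood apart on other members, with Eef1a2 at 314 CPM, the highest of all supernatants, and Eif4g2 at 363, the lowest.

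**Figure D5:**
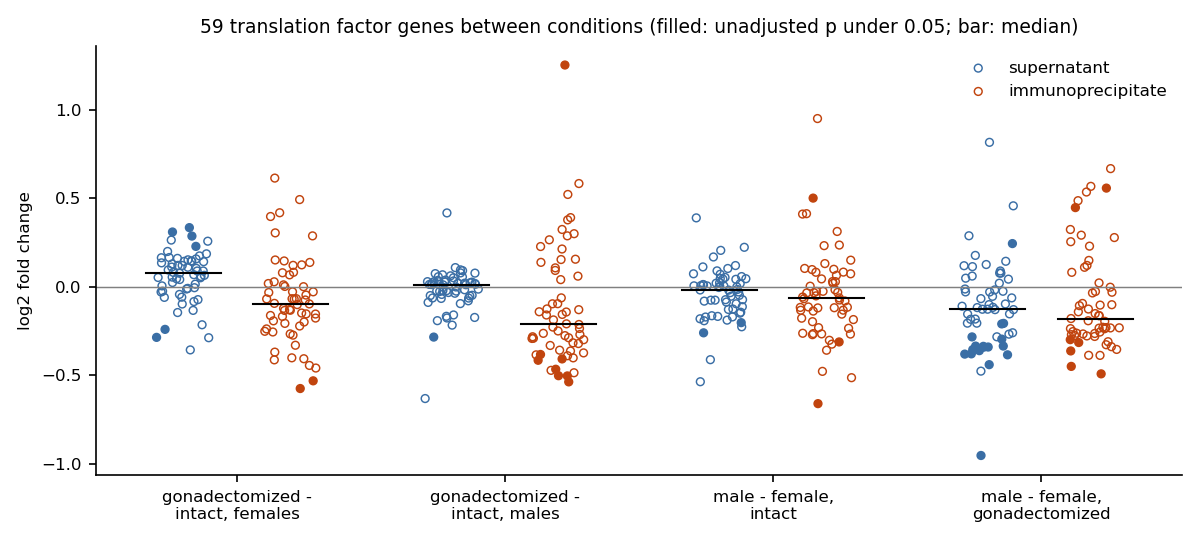
Log2 fold changes of the 59 tested members for gonadectomy and for sex, in supernatants (blue) and immunoprecipitates (red), fitted separately. Filled points have an unadjusted p under 0.05, black bars are medians, and horizontal scatter only separates points. No point passed after adjustment, and the largest group of filled points (17) is in the supernatants for sex in gonadectomized mice. No share of all genes at that unadjusted p is shown.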

How the data were processed

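RNA of 13 pools of mice was measured in 2 fractions, 26 libraries in 8 groups. The SMART-Seq kit named in the labels' protocols does not mark strand, and reads were paired. The deposited values are estimated counts per gene, which the authors made on mm10, per the submitters' processing notes, which name Cuffdiff 2.1.1 with Cufflinks, and TopHat2 2.0.9 with Bowtie2 2.1.0. How multi-mapped reads were treated, and with which annotation, is not given in the sources used here. No column lacked a sample.

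Expected counts as deposited were rounded to whole numbers. edgeR 4.0.16 in R 4.3.3 was run on the whole table with TMM factors, filterByExpr (minimum count 10, minimum total 15) and quasi-likelihood F-tests (two-sided), adjusted over all genes tested after Benjamini and Hochberg, with calls at an adjusted p under 0.05. The procedure was tested on simulated data. Fraction contrasts used all 26 libraries, and sex and gonadectomy were tested within each fraction of 13 libraries. Alternatives were DESeq2 1.42.0 and its size factors, limma 3.58.1 (voom), no filter, the pool as a block, a term for the library numbering, libraries 11 to 30 or 1 to 10 alone (the latter added after seeing the data), only the groups compared and leaving out each library. The Eef1a1 to Eef1a2 ratio used counts with 0.5 added. Both fractions of a pool come from the same animals, so pools pair the libraries by design. The correlation of their deviations was 0.0143 to 0.170, above 0.1 in 7 of 13 pools.

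The genes and lists were chosen with earlier results of these data known. Values by group were given for called members with the 6 highest and 6 lowest fold changes at 5 CPM or more and for the most abundant of each class. In comparisons without a call, the 2 members of lowest p were named, and in tests of a difference the 1 of lowest p. Total counts of 27217253 to 56668582 set the precision, and without molecular identifiers they cover counting error only. No 2 replicates agreed within sampling noise (lowest chi-square per degree of freedom 4.60). Positions are those of GENCODE on GRCm38, lengths are those of the principal transcript, and promoter windows are RefSeq's.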

Additional observations from a re-analysis of the deposited data

Results flagged for a closer look

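In groups of 4 pools, 118 sets of values were screened for a library far from the rest, where chance gives about 5% of groups, and 3 stood apart. Eif4h was at 559.6 CPM in the immunoprecipitate of intact male replicate 1, against 636 to 644 in the other 3. Eif5b was at 45.5 CPM in the supernatant of intact male replicate 1, against 37.8 to 39.1. Eef1e1 was at 76.8 CPM in the supernatant of intact male replicate 0, against 85.8 to 87.2.

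For 5 members, every pool of one condition moved one way between the fractions and every pool of another moved the opposite way. The differences in mean log2 were 0.40 for Eif1ax, 0.42 for Eif2b5 and 0.49 for Eif4e between gonadectomized females and gonadectomized males, 0.29 for Eif3c between intact and gonadectomized females, and -1.5 for Eif2c4 between intact and gonadectomized males. None of these passed edgeR's test of the difference after adjustment. The share of all genes with such a pattern was not counted, so the 5 are not shown to exceed it.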

How the results depend on the processing

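None of the 33 called members reversed under any alternative. With all libraries, 30 kept the call in all 31 fits, those that left out 1 library included, and the exceptions were Eif4ebp3, Eif1ax and Eif4g2. With libraries 11 to 30 alone 21 kept it (18 higher and 4 lower over all members), with 1 to 10 alone 28, and in both 17. Of all 17378 genes tested in libraries 11 to 30 alone, 2353 were higher and 2253 lower. Leaving out 1 library gave 26 to 30 higher and 4 to 7 lower. The replicate block by pool gave 27 higher and 6 lower, lost only Eif4ebp3 over all pools, and moved the calls by condition as below. Of all calls, 49.7% were higher in the main analysis, 43.3% with the block and 39.5% in voom.

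By condition, members higher in intact females were 0 in libraries 11 to 30, 1 with only the groups compared and 8 to 23 without 1 library, and members lower 5 in DESeq2, 3 with the replicate block and 1 to 3 without 1 library. Gonadectomized females gave 8 higher in libraries 11 to 30, 4 in DESeq2, 1 with RLE factors, no filter, the replicate block or only the groups compared, and 1 to 3 without 1 library. Intact males gave 4 higher and 2 lower in libraries 11 to 30, and 17 to 26 higher and 2 to 6 lower without 1 library. Gonadectomized males gave 13 higher and 4 lower in libraries 11 to 30, and 16 and 5 with only the groups compared. With RLE factors or no filter 1 was lower, and without 1 library 3 to 6 were higher and 1 was lower. The shares of all genes called by condition in these alternatives are not given here, so these counts cannot be set against them.

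Within fractions, DESeq2 called 1 member for gonadectomy in male immunoprecipitates and 8 for sex in gonadectomized supernatants, where a numbering term gave 2 and leaving out 1 library 0 to 16. For gonadectomy in female supernatants the latter gave 0 to 3. The shares of all genes called in these alternatives are not given here. Eef1g and Eif3f in female immunoprecipitates turned to 0.020 and 0.012 in libraries 11 to 30. The Eef1a1 to Eef1a2 shift was 3.07 in libraries 1 to 10, whose 4 pools cannot give p under 0.125, and 2.93 to 3.03 without 1 pool. The causes were not tested.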
